A study of Mus musculus with 6 samples.

Results

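The genes described here are 34 transcriptional targets of p53, compared between parental 22Rv1 cells and the 22Rv1 BL-B01D1–resistant subline (22Rv1 BL-B01D1_R). A gene was a member when its name in the deposited count table equaled one of 34 listed symbols, a list drawn up with earlier results of these data known. The 34 members are among 58735 genes in the table, and 33 of them were among the 17142 genes with enough counts to be tested. TIGAR was the exception.

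The 22Rv1 line derives from a human prostate cancer xenograft, and BL-B01D1 is a bispecific antibody-drug conjugate that binds EGFR and HER3 and carries a topoisomerase I inhibitor derived from camptothecin. The resistant subline was obtained by culture in increasing concentrations of BL-B01D1, and parental cells received vehicle. RNA-Seq was performed on 3 libraries per group. The subline came from 1 selection, so its 3 libraries describe that subline, and because no source says that the libraries came from separate cultures, p-values may measure technical spread only. Whether the conjugate was in the medium when RNA was collected is not given in the sources used here. Although the labels give mouse as the organism, the values were treated as human, since the gene identifiers and the genome build are.

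Total counts per library were 13821639 to 17251491 in parental cells and 14820809 to 16725283 in resistant cells, so that 3 counts corresponded to 0.174 to 0.217 CPM, the counts scaled to a common library size. The mitochondrial share of counts was 4.19% to 4.21% in parental and 5.10% to 5.35% in resistant libraries, and its part in the results was not tested. All 10 prostate luminal markers passed the filter on low counts. At edgeR FDR under 0.05, 7 rose (70%) and 2 fell (20%), beside 17.1% and 18.4% of all genes tested. Their summed level was 3752 to 3832 CPM in parental and 4199 to 4282 CPM in resistant libraries. Among 5 fibroblast markers the summed level was 110.9 to 114.6 CPM in parental and 39.1 to 43.8 CPM in resistant libraries, with COL1A2 and PDGFRB near 0. LUM, which encodes the matrix proteoglycan lumican, carried most of this sum and fell from 96.0 to 28.8 CPM (edgeR FDR 1.11e-26), whereas COL1A1 fell only from 14.2 to 11.7 CPM (edgeR FDR 0.0348) and DCN did not pass the test. The 5 neuroendocrine markers summed to 159.9 to 174.7 CPM in parental and 146 to 157 CPM in resistant libraries, with INSM1 near 0. Of these, CHGA (chromogranin A) fell from 39.4 to 8.18 CPM (edgeR FDR 2.49e-24), CHGB (chromogranin B) rose from 24.2 to 37.9 CPM (edgeR FDR 6.59e-10), and SYP did not pass the test. The part of the luminal, fibroblast, and neuroendocrine marker differences in the results was not tested. The summed levels of 5 immune and 3 endothelial markers did not exceed 0.308 and 0.185 CPM.

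p53 is a transcription factor that DNA damage and other stresses stabilize, mainly by releasing it from the ubiquitin ligase MDM2. It then binds response elements in its target genes, whose products arrest the cell cycle, repair DNA, adjust metabolism, or commit the cell to death. MDM2 is itself a target, which closes a negative feedback loop. Inhibitors of topoisomerase I cause DNA breaks during replication and are textbook activators of this response.

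Of the 33 tested members, 14 rose in the resistant subline and 1 fell (edgeR quasi-likelihood test with Benjamini-Hochberg adjustment, FDR under 0.05). The members that rose were 42.4% of those tested, beside 17.1% of all genes tested, and the 1 that fell, TNFRSF10B, was 3.03%, beside 18.4% of all genes. TP53INP1, TP53I11, and PHLDA3 rose by more than 2-fold, against 2.53% of all genes, whereas no member fell by more than 2-fold, against 2.84% of all genes. In 16 members every resistant library was above every parental library, a share of 48.5% compared with 22.1% of all genes. The opposite order held for TNFRSF10B alone, compared with 22.8% of all genes. The median log2 fold change of the members was 0.12, beside 0.0038 for all genes tested. It was above 0 for 25 of the 33 (75.8%), beside 50.6% of all genes tested. These counts describe a list that was not chosen independently of the data, and they were not tested as a set.

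By role, cell death, survival signaling, and autophagy held 6 of the 14 genes that rose, out of 9 tested. Cell cycle and growth arrest held 3 of 6, metabolism and redox 2 of 3, and control of p53, DNA repair and nucleotide supply, and the death receptors 1 each of 5, 4, and 5. The shares of the last-named roles, 20%, 25%, and 20%, lie near the 17.1% of all genes tested that rose. KITLG, the only ligand, did not pass the test. The plot of fold changes by role shows these groups.

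**Figure D1:**
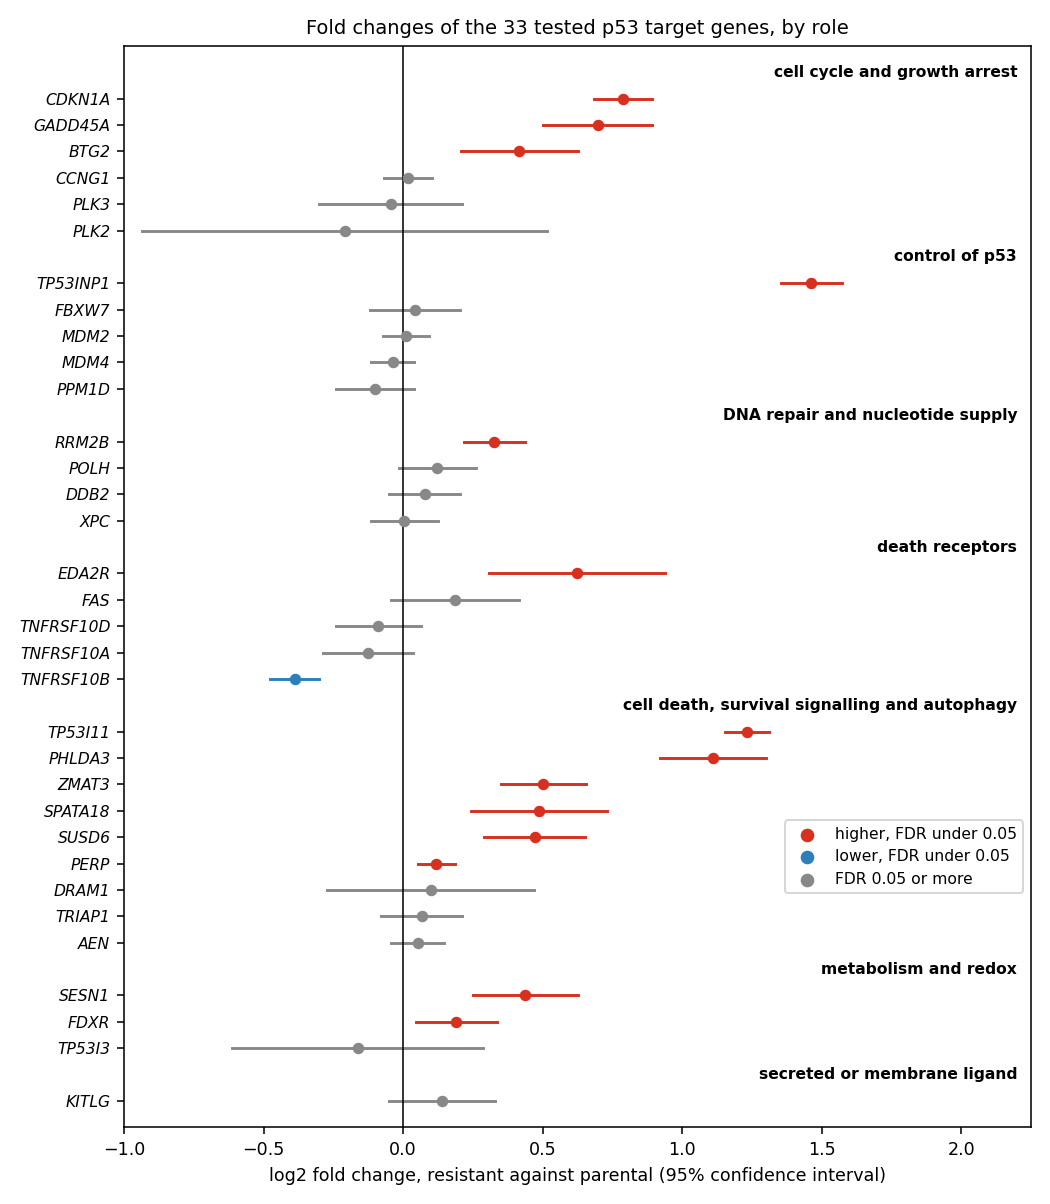
Log2 fold change (resistant against parental, x axis) of the 33 tested p53 target genes, grouped by role, with 95% confidence intervals from 3 libraries per group. Red points rose, the blue point fell, and grey points did not pass FDR 0.05; red points run from 0.12 for PERP to 1.46 for TP53INP1, and the blue point is TNFRSF10B at −0.39.

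The inhibitor of cyclin-dependent kinases p21, the main effector of p53-dependent arrest, is encoded by CDKN1A (chromosome 6, 36676460 to 36687339, plus strand, hg38). CDKN1A was measured at 57.4, 65.6, and 61.2 CPM in the parental libraries and at 99.96, 104, and 114 CPM in the resistant libraries. The groups did not overlap, and the lowest resistant library was well above the highest parental one. The means of 61.4 ± 4.10 and 106 ± 7.18 CPM (SD, n = 3 each) gave a log2 fold change of 0.79 (SE 0.0507), or 1.73-fold with a 95% confidence interval of 1.61 to 1.85 (edgeR FDR 1.24e-16).

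GADD45A, a stress sensor that slows entry into mitosis and takes part in DNA repair (chromosome 1, 67685061 to 67688338, plus strand), was at 11.1, 14.3, and 12.6 CPM in parental cells and at 21.2, 20.7, and 19.8 CPM in resistant cells. All resistant values lay above all parental values, and the gene rose 1.62-fold (95% CI 1.42 to 1.86, edgeR FDR 1.38e-07). BTG2, an antiproliferative regulator of mRNA decay (chromosome 1, 203305491 to 203309602, plus strand), was at 12.5, 12.4, and 10.5 CPM in parental and 14.7, 15.6, and 17.1 CPM in resistant libraries, a 1.33-fold rise (95% CI 1.15 to 1.54, edgeR FDR 0.00133). The remaining arrest genes did not pass the test. CCNG1, which encodes cyclin G1, had means of 103 and 104 CPM (1.01-fold, 95% CI 0.954 to 1.07), and the polo-like kinase gene PLK3 had a fold of 0.970 (95% CI 0.811 to 1.16). PLK2 was read at 8 to 34 counts per library, and its interval of 0.522 to 1.43 left changes of either sign within reach at this depth.

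**Figure D2:**
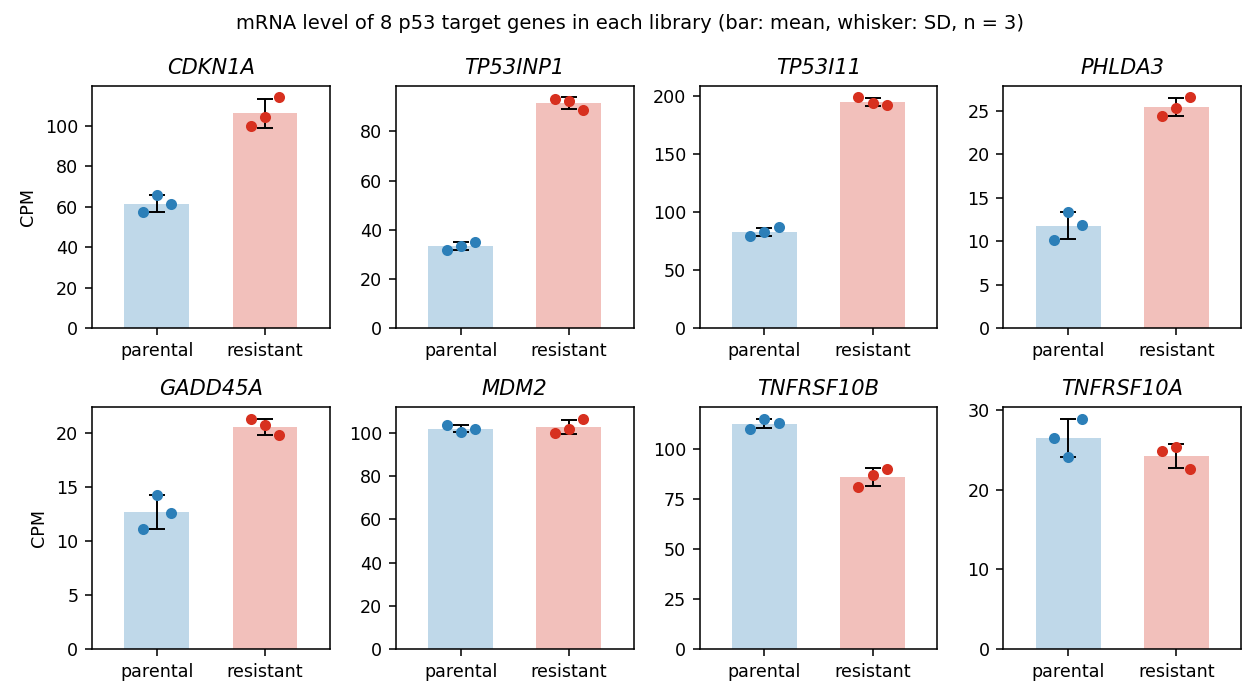
CPM (y axis) of 8 p53 target genes in each of the 3 parental and 3 resistant libraries (points), with bars from 0 for the means and whiskers for SD. CDKN1A, TP53INP1, TP53I11, PHLDA3, and GADD45A are higher in every resistant library, MDM2 overlaps between the groups at means of 102 and 103 CPM, and TNFRSF10B is lower in every resistant library.

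MDM2, the ligase that targets p53 for degradation and one of its most direct targets, did not follow CDKN1A. MDM2 (chromosome 12, 68808176 to 68850686, plus strand) was at 104, 100.2, and 102 CPM in parental libraries and 99.8, 102, and 106 CPM in resistant libraries. The groups overlapped fully, with means of 102 ± 1.73 and 103 ± 3.46 CPM (SD, n = 3 each). The 95% confidence interval of its fold ran from 0.951 to 1.07 (edgeR FDR 0.870), so that a change as large as that of CDKN1A lay far outside it. Within each library the ratio of CDKN1A to MDM2 counts was 0.554, 0.655, and 0.601 in parental cells and 1.00, 1.02, and 1.07 in resistant cells. These ratios did not overlap, at an exact two-sided permutation p of 0.1, the smallest that 3 against 3 libraries allow. The ratios come from the same counts as the levels above, so they are a description and not a separate test.

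The other feedback inhibitors of p53 among the members were also not called. MDM4, which binds p53 and blocks its activation domain, averaged 142 ± 4.34 CPM in parental and 139 ± 5.31 CPM in resistant cells (SD, n = 3 each), with a fold interval of 0.924 to 1.03. The phosphatase gene PPM1D had a fold of 0.932 (95% CI 0.847 to 1.03), and FBXW7, the substrate receptor of a ubiquitin ligase, had a fold of 1.03 (95% CI 0.921 to 1.15).

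TP53INP1, placed in the same role because its product promotes phosphorylation of p53 and also acts in autophagy, showed the largest fold of all members. TP53INP1 (chromosome 8, 94925972 to 94949411, minus strand) was at 31.6, 33.2, and 34.8 CPM in parental libraries and 93.3, 92.2, and 88.6 CPM in resistant libraries. No parental library came near any resistant one, and the spread within each group was small. The gene rose 2.76-fold (95% CI 2.56 to 2.97), with a log2 fold change of 1.46 (SE 0.0539, edgeR FDR 6.23e-25). Only 2.55% of all genes tested had a larger absolute log2 fold change.

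Among genes of cell death, survival signaling, and autophagy, TP53I11 and PHLDA3 rose most. TP53I11, a p53-induced gene whose function is little defined (chromosome 11, 44885903 to 44951306, minus strand), was at 79.5, 82.5, and 86.6 CPM in parental and 198, 193, and 192 CPM in resistant libraries. The groups were far apart, and the gene rose 2.35-fold (95% CI 2.23 to 2.48, edgeR FDR 1.98e-27). PHLDA3, which encodes a small pleckstrin homology domain protein that keeps AKT from the membrane (chromosome 1, 201464383 to 201469237, minus strand), was at 10.2, 13.3, and 11.9 CPM in parental and 24.4, 25.4, and 26.6 CPM in resistant libraries. It rose 2.16-fold (95% CI 1.89 to 2.46, edgeR FDR 5.63e-13), again with no overlap.

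Smaller rises were seen in 4 further genes of this role. ZMAT3, which encodes an RNA-binding zinc finger protein that regulates splicing (chromosome 3, 179017223 to 179072279, minus strand), was at 26.6, 22.3, and 25.3 CPM in parental and 37.2, 33.99, and 33.8 CPM in resistant libraries (1.42-fold, edgeR FDR 6.14e-07). SPATA18, the regulator of mitochondrial quality also called Mieap (chromosome 4, 52051331 to 52097292, plus strand), was at 8.76, 9.53, and 7.71 CPM in parental and 12.7, 13.3, and 10.7 CPM in resistant libraries (1.40-fold, edgeR FDR 0.00129). SUSD6, a sushi domain membrane protein gene (chromosome 14, 69611596 to 69715142, plus strand), was at 14.6, 16.3, and 18.3 CPM in parental and 23.7, 22.0, and 22.1 CPM in resistant libraries (1.39-fold, edgeR FDR 3.87e-05). In each of these genes the lowest resistant library exceeded the highest parental library. PERP, a desmosomal membrane protein gene and p53 effector (chromosome 6, 138088505 to 138107511, minus strand), rose by only 1.09-fold, from 184, 184, and 178 CPM to 200.2, 194, and 199 CPM (95% CI 1.04 to 1.14, edgeR FDR 0.00395). Of the rest, the nuclease gene AEN had a fold of 1.04 (95% CI 0.971 to 1.11), the apoptosis inhibitor TRIAP1 1.05 (95% CI 0.946 to 1.16), and the lysosomal autophagy regulator DRAM1 1.07 (95% CI 0.827 to 1.39), none past the test.

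The death receptors were the only role with changes in both directions. TNFRSF10B, which encodes the TRAIL receptor DR5 (chromosome 8, 23020133 to 23069179, minus strand), was at 110.0, 115, and 113 CPM in parental libraries and 81.2, 87.0, and 90.0 CPM in resistant libraries. Every resistant library was below every parental one, and the level of parental cells was 1.31-fold that of resistant cells (resistant over parental 0.764, 95% CI 0.719 to 0.812, edgeR FDR 8.53e-10). TNFRSF10A, the gene for the other death-inducing TRAIL receptor DR4, did not pass the test, at means of 26.5 and 24.2 CPM (fold 0.916, 95% CI 0.820 to 1.02). The decoy receptor gene TNFRSF10D, the nearest tested gene on the far side from the overlapping RHOBTB2, had a fold of 0.941 (95% CI 0.846 to 1.05). The ratio of TNFRSF10B to TNFRSF10D counts was 4.33, 4.41, and 4.01 in parental and 3.10, 3.60, and 3.70 in resistant libraries (exact two-sided permutation p = 0.1), whereas the ratio to TNFRSF10A overlapped between the groups (exact two-sided permutation p = 0.2). These ratios also reuse the counts behind the levels above and are not a separate test.

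EDA2R, the receptor for ectodysplasin A2 (X chromosome, 66595637 to 66639298, minus strand), went the other way, from 4.93, 6.25, and 4.11 CPM in parental to 7.06, 8.498, and 8.20 CPM in resistant libraries (1.54-fold, 95% CI 1.24 to 1.92, edgeR FDR 0.00146). FAS, which encodes the CD95 death receptor, was above the parental range in every resistant library, at 9.88 ± 0.202 and 11.2 ± 0.444 CPM (SD, n = 3 each), but it did not pass the test across all genes (1.14-fold, 95% CI 0.969 to 1.33, edgeR FDR 0.217).

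Genes of DNA repair moved little. RRM2B, the p53-inducible subunit of ribonucleotide reductase that supplies deoxynucleotides (chromosome 8, 102204502 to 102239118, minus strand), rose from 62.4, 60.9, and 53.02 CPM to 74.1, 71.3, and 76.2 CPM (1.25-fold, 95% CI 1.16 to 1.35, edgeR FDR 3.91e-06). The damage recognition genes of nucleotide excision repair, XPC and DDB2, had folds of 1.00 (95% CI 0.924 to 1.09) and 1.05 (95% CI 0.967 to 1.15). POLH, which encodes a polymerase that copies past ultraviolet lesions, had a fold of 1.09 (95% CI 0.989 to 1.20). Only RRM2B of these 4 passed the test.

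In metabolism and redox control, SESN1, a sestrin that restrains mTORC1 and oxidative stress (chromosome 6, 108986437 to 109094819, minus strand), rose from 15.3, 13.9, and 13.2 CPM to 18.2, 20.5, and 19.0 CPM (1.35-fold, 95% CI 1.19 to 1.54, edgeR FDR 0.000218). FDXR, the mitochondrial ferredoxin reductase (chromosome 17, 74862497 to 74873031, minus strand), was at 26.5, 27.6, and 26.9 CPM in parental and 29.5, 30.7, and 32.2 CPM in resistant libraries (1.14-fold, edgeR FDR 0.0346). This was the weakest of the 15 calls, and it was lost in 7 of 15 other settings; without resistant replicate 3 its FDR was 0.146. The quinone oxidoreductase gene TP53I3 had a fold of 0.894 (95% CI 0.654 to 1.22). TIGAR, which lowers fructose-2,6-bisphosphate, had only 4 to 12 counts per library and was not tested. KITLG, the ligand of the receptor KIT, averaged 15.5 and 17.1 CPM (1.10-fold, 95% CI 0.965 to 1.26).

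The 18 tested members that did not pass were mostly measured tightly. For 13 of them the 95% interval of the fold lay between 0.8 and 1.25, and for 16 it lay between 0.667 and 1.5. A change of the size seen for CDKN1A lay outside those 16 intervals.

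Levels were compared between genes on the FPKM scale, which divides counts by the listed gene length. PERP was highest in both groups, at 42.5 FPKM in parental and 46.1 FPKM in resistant cells. In parental cells CCNG1 (33.3 FPKM), TRIAP1 (22.8 FPKM), TNFRSF10B (21.8 FPKM), and CDKN1A (20.1 FPKM) came next. In resistant cells CDKN1A moved to the second place at 34.8 FPKM, close to CCNG1 at 33.7 FPKM, and TP53I11 moved from the eighth place at 11.3 FPKM to the fourth at 26.5 FPKM. TP53INP1 moved from the 19th place (5.85 FPKM) to the seventh (16.1 FPKM), just under TNFRSF10B at 16.7 FPKM. PLK2 and TIGAR were lowest in both groups.

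**Figure D3:**
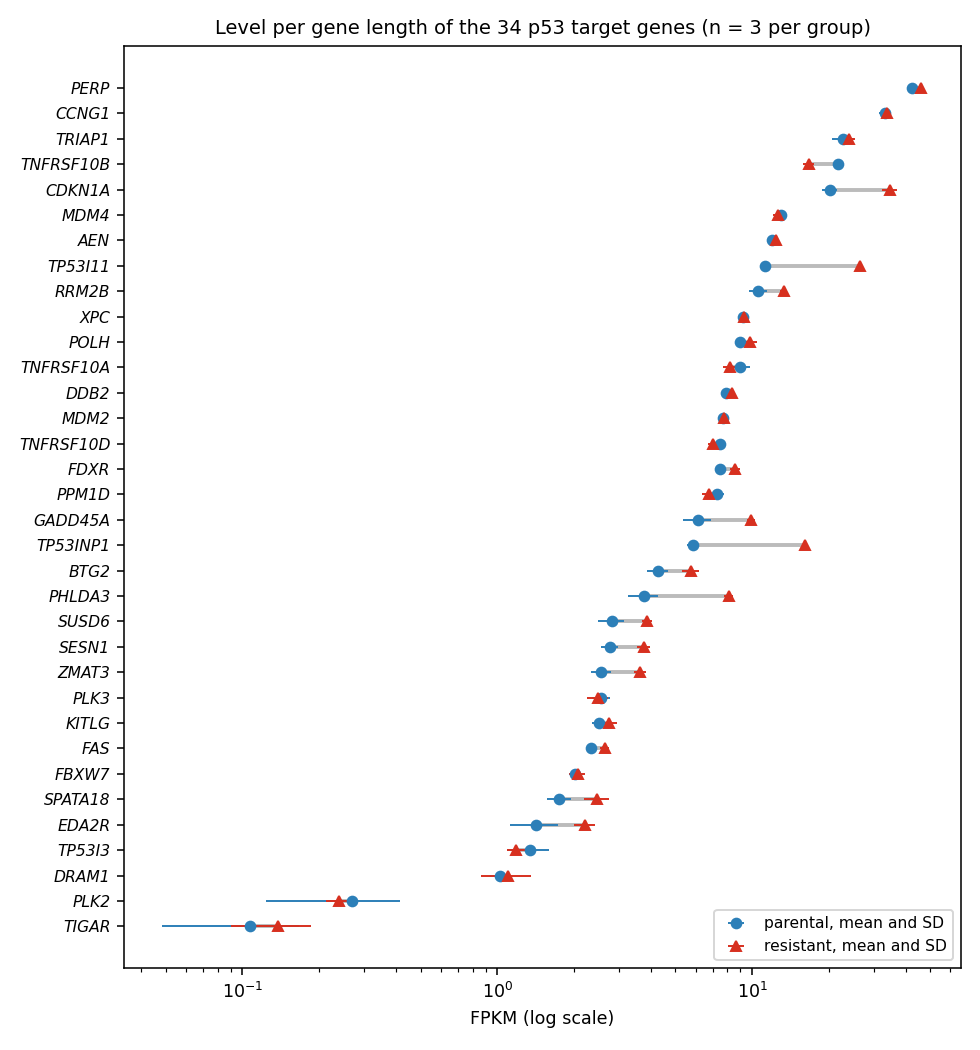
Level per gene length (FPKM, log scale, x axis) of the 34 p53 target genes, with circles for parental and triangles for resistant means, horizontal bars for SD (n = 3), and grey lines joining the means of a gene. The genes are ordered by parental level, from PERP at 42.5 FPKM to TIGAR at 0.107 FPKM, and the longest grey lines belong to TP53INP1, TP53I11, and PHLDA3.

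A few genes carried most of the difference in summed level. All 34 members together were at 1385, 1397, and 1374 CPM in parental and 1655, 1651, and 1692 CPM in resistant libraries, a ratio of 1.20. TP53I11 contributed 39.8% of the net difference in mean level, TP53INP1 20.7%, and CDKN1A 15.9%, which came to 76.4% for the 3 genes. The difference is net of members with lower means in resistant cells, of which TNFRSF10B counted for −9.46%.

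In the list of the p53 family and regulators, 32 of 33 genes were tested, of which 3 rose (9.38%) and 14 fell (43.8%), with a median log2 fold change of −0.09. The corresponding shares of all genes tested were 17.1% and 18.4%. The genes with the smallest p were the methyltransferase genes SETD7 and KMT5A, which fell to folds of 0.806 (edgeR FDR 2.46e-10) and 0.747 (edgeR FDR 8.41e-10), and TRIM24, a ubiquitin ligase gene for p53, which rose 1.26-fold (edgeR FDR 5.53e-10).

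A further 52 known p53 targets outside the members were listed, and 46 of them were tested. In this list 12 rose (26.1%) and 5 fell (10.9%), beside 17.1% and 18.4% of all genes tested, with a median log2 fold change of 0.05. BTG1, an antiproliferative relative of BTG2, rose from 86.0, 77.9, and 80.0 CPM to 188, 182, and 176 CPM, which was 2.24-fold (95% CI 2.12 to 2.37, edgeR FDR 8.89e-26). NADSYN1, an enzyme of NAD synthesis, rose 1.39-fold (edgeR FDR 4.53e-09), and PCNA, the sliding clamp of DNA polymerases, fell to a fold of 0.857 (edgeR FDR 1.74e-08). Among classical apoptotic targets, chosen after their values were seen, BAX and APAF1 fell, with log2 fold changes of −0.26 each (edgeR FDR 0.00107 and 0.000915), whereas BBC3 and PMAIP1, which encode PUMA and NOXA, did not pass the test at −0.06 and 0.15 (edgeR FDR 0.441 and 0.180).

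p21 can hold the DREAM complex on the promoters of cell cycle genes and so keep them repressed. Of 34 cell cycle genes listed as repressed in this way, 33 were tested, of which 27 fell (81.8%) and none rose, none by more than 2-fold, and the median log2 fold change was −0.24. Among all genes tested, 18.4% fell and 17.1% rose. CCNA2, which encodes cyclin A2, was at 231, 228, and 217 CPM in parental and 178, 181, and 179.8 CPM in resistant libraries (fold 0.798, 95% CI 0.762 to 0.836, edgeR FDR 9.29e-11). The replicative helicase gene MCM5 (fold 0.818, edgeR FDR 1.23e-10) and the proliferation marker MKI67 (fold 0.851, edgeR FDR 4.98e-10) fell by similar amounts. CDK1, chosen after its values were seen, had a value of 0.04 on the log2 scale (edgeR FDR 0.543). The summed level of the list was 5430 to 5516 CPM in parental and 4715 to 4725 CPM in resistant libraries. Whether the level of CDKN1A bears on these genes was not tested.

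**Figure D4:**
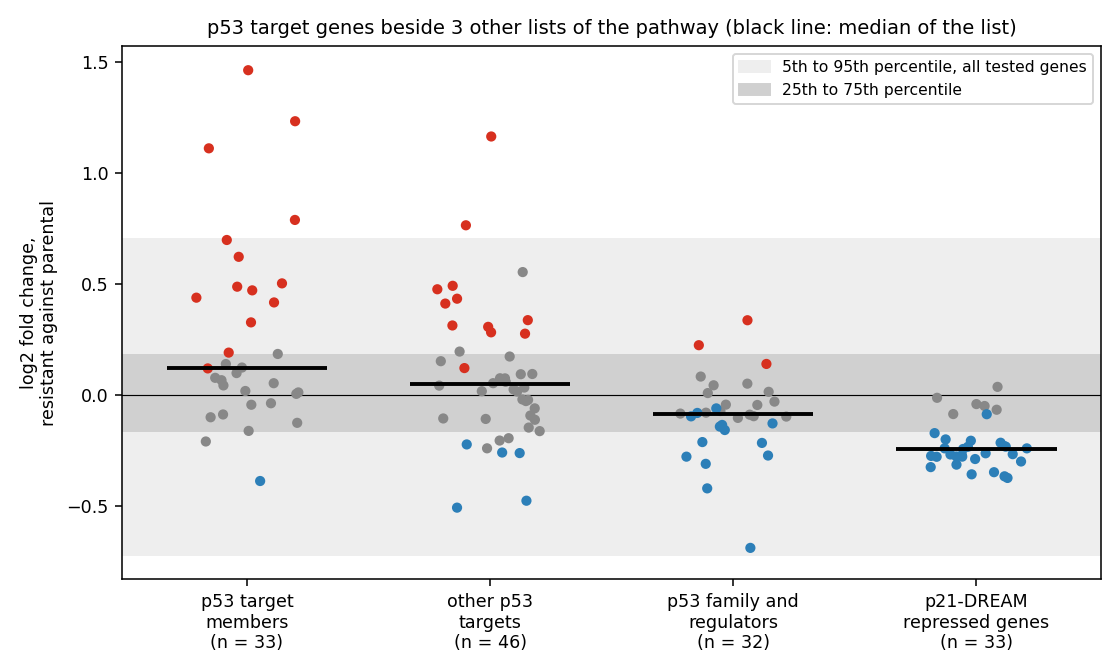
Log2 fold change (resistant against parental, y axis) of each tested gene in the members (33), other p53 targets (46), p53 family and regulators (32), and p21-DREAM repressed cell cycle genes (33), with black lines for list medians and grey bands for the 5th to 95th and 25th to 75th percentiles of all 17142 genes tested. The medians are 0.12, 0.05, −0.09, and −0.24, and the cell cycle genes stay between −0.37 and 0.04.

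The nearest tested gene on each side of each called member was also examined. The 14 members that rose had 28 nearest tested neighbors, of which 2 rose, 16 fell, and 10 did not pass the test. Over all genes tested, 17.1% rose and 18.4% fell. Both that rose are at TP53INP1 and share one locus. NDUFAF6 (94895767 to 95116455, plus strand) spans the whole of TP53INP1 on the opposite strand and was higher by 0.35 on the log2 scale (edgeR FDR 0.000404). AC087752.3, 626 bases from TP53INP1, also lies within the span of NDUFAF6 and had 2.06 (edgeR FDR 3.26e-05) on 4 to 35 counts per library. The neighbors of CDKN1A, SRSF3 and PPIL1, had log2 fold changes of −0.11 and −0.23, and those of PHLDA3, TNNI1 and CSRP1, had −0.96 and −0.33. RHOBTB2, which overlaps TNFRSF10B on the opposite strand, had −0.19 (edgeR FDR 0.0222).

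**Figure D5:**
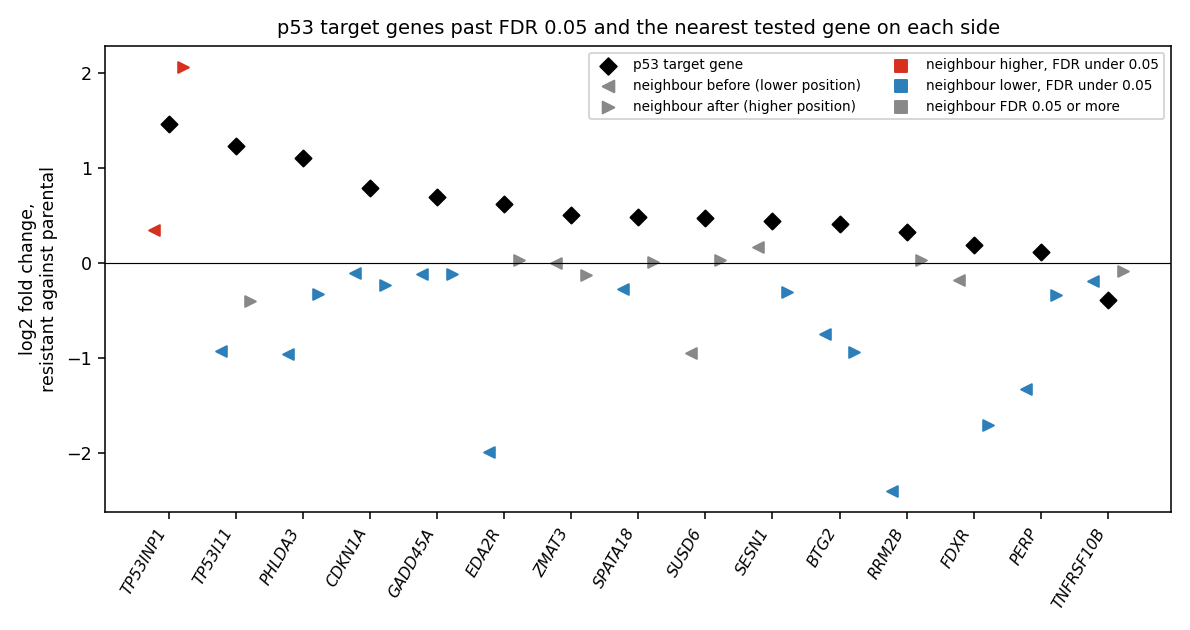
Log2 fold change (resistant against parental, y axis) of the 15 p53 target genes past FDR 0.05 and of the nearest tested gene on each side of each. Of the 28 neighbors of the 14 genes that rose, 2 passed as higher, both at TP53INP1, and 16 passed as lower.

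Whether counting used strand is not given in the sources used here, so how reads in any exons shared by overlapping genes were assigned is not known. Overlap was taken from whole gene spans, introns included, and shared exons were not examined. By this measure, 20 of the 34 members were overlapped by a listed gene on the opposite strand. For TP53INP1 the overlapping NDUFAF6 had up to 461 counts per library, beside at least 483 for TP53INP1 itself. XPC, with at least 609 counts, was overlapped by LSM3 with up to 1257. TP53I3, with at least 37 counts, was overlapped by FAM228B with up to 98. POLH, with at least 440 counts, was overlapped by GTPBP2 with up to 1380, and GTPBP2 fell by 0.30 on the log2 scale (edgeR FDR 3.61e-06). For CDKN1A and MDM2 the overlapping genes held at most 4 and 24 counts.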

How the data were processed

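RNA-Seq of 6 libraries, 3 of 22Rv1 parental cells and 3 of the resistant subline, was read from 1 table of raw counts per gene deposited by the authors, with gene names, positions, and lengths in bases. Per the submitters' processing notes, the tools were fastp, HISAT2 2.0.5, and featureCounts 1.5.0-p3 with hg38; annotation release and strand setting are not given in the sources used here. The number of unused columns of per-sample values was 0.

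After filterByExpr and TMM scaling, resistant and parental libraries entered the quasi-likelihood test of edgeR 4.0.16 in R 4.3.3, and p-values were adjusted by Benjamini-Hochberg over 17142 genes. SE was the absolute log2 fold change divided by the square root of F. CPM used TMM-scaled library sizes, and FPKM the listed lengths, which span all exons of a gene and can understate genes expressed from short isoforms. The fitting step was tried on simulated counts, and the other steps were not. The biological coefficient of variation was 3.51%. Total counts of 13821639 to 17251491 per library set the precision, and floors of 3 counts cover counting error only.

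Members and lists were chosen with earlier results of these data known. Values per library are given for CDKN1A, MDM2, and each member past FDR 0.05; of each list, the 3 genes with the smallest p are named. Some results that the rule would name are not reported here. Alternatives were limma-voom (limma 3.58.1), DESeq2 1.42.0, limma on log2(FPKM + 1), library size alone, other filters, a replicate block, and leaving out each library. No human genome sequence was used here.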

Additional observations from a re-analysis of the deposited data

How the results depend on the processing

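Under the 15 other settings, 13 or 14 members rose and 1 fell, and 3 rose by more than 2-fold except with limma on log2(FPKM + 1), which gave 2 and placed PHLDA3 at 0.94. That setting also left 9 of the p53 family and regulators lower, in place of 14. Over all 17142 genes tested it called 2494 lower, in place of 3153. Genes that rose over all genes tested numbered 2292 to 2978 in the other settings, beside 2928 in the main fit. The number of genes tested varied with the setting, from 13576 to 34035. The count of p21-DREAM repressed cell cycle genes that rose was 0 to 1 when each library was left out, with the 1 found without parental replicate 1, and the members' median log2 fold change was 0.105 to 0.143 in those fits, with the highest value without resistant replicate 1. Other p53 targets that rose numbered 9 to 13 over all settings. FDXR lost its call with DESeq2 (FDR 0.0907), library size alone (0.0542), no filter (0.0609), and without parental replicate 1 (0.0909), parental replicate 3 (0.0668), resistant replicate 2 (0.0680), or resistant replicate 3 (0.146). Of 494 values of single members, 14 changed sign, all of genes that did not pass the test. With library size alone, MDM2 was at −0.0050 and XPC at −0.012. Leaving out 1 library gave log2 fold changes of −0.0157 to 0.0334 for MDM2, −0.0154 to 0.0310 for XPC, −0.526 to 0.233 for PLK2, −0.111 to 0.0307 for PLK3, −0.0213 to 0.0565 for CCNG1, −0.0137 to 0.0868 for FBXW7, and −0.0464 to 0.271 for DRAM1. The cause of these shifts was not tested. Replicate numbers are shared by the groups but did not pair the libraries (correlations of deviations −0.00806, −0.0196, and −0.0157), and with the replicate block 14 members rose and 1 fell, with a median of 0.12. Over all genes tested, the median log2 fold change moved most with library size alone, to −0.0123. Depth limits PLK2 and TIGAR, and 3 libraries of 1 subline limit what the comparison covers.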

Other observations

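In the list of other p53 targets 12 genes rose and 5 fell, and the ones below were named after their values were seen. Besides BTG1 and NADSYN1, the genes that rose were LIF, a cytokine (1.70-fold, edgeR FDR 0.00678), RETSAT, a retinol saturase (1.41-fold, edgeR FDR 2.55e-07), DDIT4, an inhibitor of mTORC1 (1.35-fold, edgeR FDR 0.000149), FAM210B (1.33-fold, edgeR FDR 1.08e-06), RPS27L, a ribosomal protein paralog (1.26-fold, edgeR FDR 8.31e-07), and CES2, BLOC1S2, SERTAD1, ZNF385A, and ASCC3, at 1.09- to 1.24-fold. Besides PCNA, BAX, and APAF1, the genes that fell were ATF3 and EPHA2. ATF3, a stress-induced transcription factor, was at 51.6, 48.7, and 49.3 CPM in parental and 35.1, 36.1, and 36.4 CPM in resistant libraries (log2 fold change −0.48, edgeR FDR 1.83e-08). EPHA2, an ephrin receptor kinase, was lower as well, at −0.51 on the log2 scale (edgeR FDR 2.18e-06). GDF15, a secreted stress cytokine often used as a readout of p53, did not pass the test, at means of 30.9 ± 0.700 and 28.6 ± 2.19 CPM (SD, n = 3 each; edgeR FDR 0.261). The p53 relative TP73 was at 9.57, 10.4, and 9.37 CPM in parental and 5.55, 5.85, and 6.78 CPM in resistant libraries (log2 fold change −0.69, edgeR FDR 5.89e-05), and TP63 had too few counts to be tested. RPL11, a ribosomal protein that can bind MDM2, rose 1.10-fold (edgeR FDR 0.000294).

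Among luminal markers, KLK3 was low in both groups but rose from 2.67 to 4.96 CPM (1.88-fold, 95% CI 1.40 to 2.52, edgeR FDR 0.000606). KLK2, TMPRSS2, and STEAP2 rose 1.62-, 1.73-, and 1.71-fold (edgeR FDR 4.77e-08, 4.74e-10, and 2.08e-25), whereas HOXB13 and KRT18 fell to folds of 0.718 and 0.886 (edgeR FDR 2.29e-17 and 9.14e-05).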
